A study of Mus musculus with 2 samples.

Results

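The Mir290-Mir295 cluster is a run of microRNA hairpins on mouse chromosome 7. It was examined in microRNA sequencing of embryonic heart. Its members were taken as the listed genes whose Ensembl identifiers map to Mir290a, Mir291a, Mir292 (the annotation's name for Mir292a), Mir291b, Mir293, Mir294 or Mir295. All 7 were present among the 1973 microRNA genes of the count tables. The samples were 2 libraries of short RNA from hearts of B6NCrl mouse embryos at embryonic day 10.5, of mixed sex and labelled healthy. Replicate 1 came from a pool of 69 embryos and replicate 2 from a pool of 51. The labels name no genotype or treatment and give 1 group only, so levels were compared between genes within a library and between the libraries. In whole hearts, a low level in every cell and a higher level in few cells cannot be told apart.

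MicroRNA genes are transcribed as long precursors that fold into hairpins, from which a 5p and a 3p arm of mature microRNA are cut. The mature strand recognises target messages mainly through its seed, the stretch near its 5′ end. The Mir290-Mir295 cluster is known as one of the most abundant microRNA loci of mouse embryonic stem cells and of the early embryo, and its level falls as cells differentiate. Several of its 3p arms belong to the microRNAs that speed the entry of embryonic stem cells into DNA synthesis. The Mir302-Mir367 cluster carries the same kind of seed and is known from the epiblast and from pluripotent cells.

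The 7 hairpins lie on the plus strand within 2216 bases, from 3218626 to 3220841 on chromosome 7 (mm10). Mir290a is first, at 3218626 to 3218708, and only the minus-strand hairpin Mir290b overlaps it. Mir291a follows at 3218919 to 3219000, Mir292 at 3219189 to 3219270 and Mir291b at 3219482 to 3219560. Mir293 lies at 3220343 to 3220422, Mir294 at 3220641 to 3220724 and Mir295 at 3220773 to 3220841. The 6 hairpins from Mir291a to Mir295 are opposite the last exon of the minus-strand gene Nlrp12, and Mir292 also overlaps the minus-strand hairpin Mir292b. Mir290b and Mir292b were not among the counted genes.

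The 3p arms carry the seed for which the cluster is known, so they are shown with the seed (bases 2 to 8) in capitals, in cluster order. RefSeq (GRCm38.p6) held 13 arms of the 7 members, and miR-292a-3p had no entry.
miR-290a-3p: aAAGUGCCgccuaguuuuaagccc
miR-291a-3p: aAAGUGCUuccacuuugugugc
miR-291b-3p: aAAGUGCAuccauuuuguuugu
miR-293-3p: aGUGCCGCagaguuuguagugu
miR-294-3p: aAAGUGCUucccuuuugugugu
miR-295-3p: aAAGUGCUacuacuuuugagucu
The arms of Mir291a, Mir294 and Mir295 have the same seed, and 5 of the 6 arms share the seed's first 6 bases (bases 2 to 7). Among all 1738 mature arms of the table, 8 (0.460%) have these 6 bases at that place, and 3 of those come from genes outside the cluster, Mir302b, Mir302d and Mir350. The seed of miR-293-3p was found in no other arm of the table.

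The seed shared with the Mir302-Mir367 cluster is seen in these arms, with the same bases in capitals.
miR-302b-3p: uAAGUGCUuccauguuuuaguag
miR-302d-3p: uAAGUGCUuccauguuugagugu
The 5p arms form a second group. Those of Mir290a, Mir292 and Mir293 have one seed in common, which no other arm of the table has.
miR-290a-5p: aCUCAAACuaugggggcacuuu
miR-292a-5p: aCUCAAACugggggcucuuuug
miR-293-5p: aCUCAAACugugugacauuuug
The deposited counts are per hairpin, so they do not show which arm the reads came from.

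All 7 hairpins were counted in the E10.5 heart, at low to moderate levels. Levels are own-strand counts per 1000000 own-strand gene counts of the library (CPM). Together the hairpins had 6241 of 4163656 counts in replicate 1 and 5361 of 4789068 in replicate 2. That is 0.150% of counts (95% exact interval 0.146 to 0.154) and 0.112% (0.109 to 0.115), with a mean of 0.131% ± 0.0268 (SD, n = 2). The intervals of the libraries did not overlap, so the share differed beyond counting error. Each of the 7 had at least 10 counts in both libraries, as did 381 of the 1973 listed genes (19.3%), whereas 62.5% of listed genes had no count in either.

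Mir293 was the most abundant member, with 582 CPM in replicate 1 and 412 CPM in replicate 2, a mean of 497 ± 121 CPM (SD, n = 2). It ranked 121 of all listed genes by mean CPM. Mir294, whose 3p arm carries a seed of the cell-cycle group, had 427 and 356 CPM, a mean of 391 ± 49.6, and ranked 135. Mir292 had 301 and 222 CPM, a mean of 261 ± 55.5, and ranked 159. These 3 hairpins held 87.4% of the cluster's counts in replicate 1 and 88.5% in replicate 2, and they were the only members above 100 CPM in both libraries, a level that 195 listed genes reached.

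The other 4 members were each below 100 CPM in both libraries. Mir291a, another hairpin with the seed of miR-294-3p, had 91.0 and 66.4 CPM, a mean of 78.7 ± 17.4. Mir291b had 50.0 and 27.6 CPM, a mean of 38.8 ± 15.8. Mir295 had 43.5 and 30.7 CPM, a mean of 37.1 ± 9.03. Mir290a, the first hairpin of the cluster, was the lowest, with 4.80 and 4.18 CPM, a mean of 4.49 ± 0.444, on 20 counts in each library. With so few counts its exact interval ran from 2.93 to 7.42 CPM in replicate 1 and from 2.55 to 6.45 CPM in replicate 2. Its 20 counts were above the 3 counts that a count of 0 allows (0.721 and 0.626 CPM in the respective libraries).

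**Figure D1:**
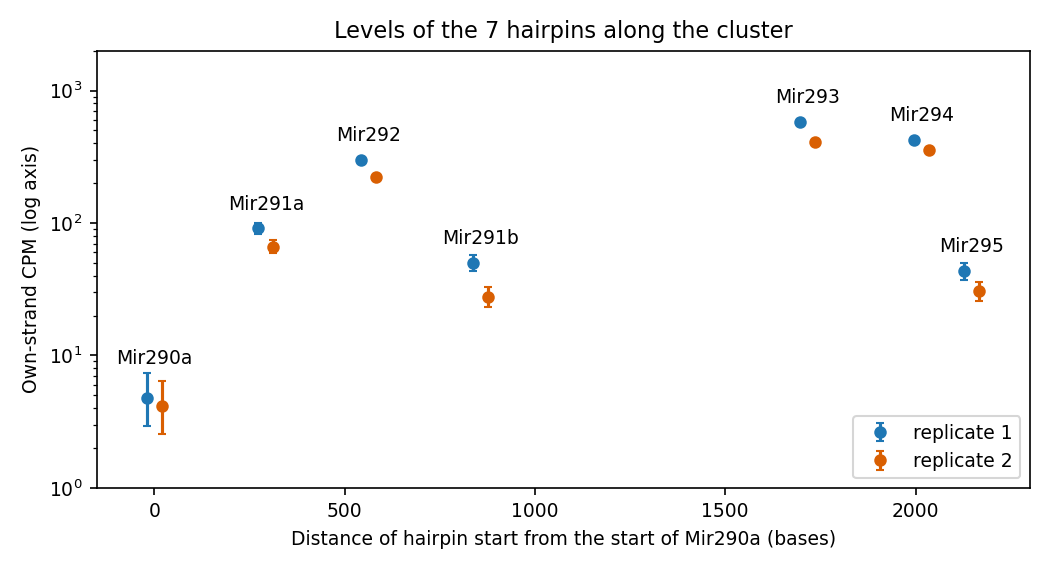
Own-strand CPM of each hairpin (log axis) against the distance of its start from the start of Mir290a, in bases, for replicate 1 and replicate 2; bars are exact 95% intervals of counting error. Mir293, Mir294 and Mir292 lie above 100 CPM in both libraries, and Mir290a lies below 10 CPM.

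The order of the 4 leading hairpins was the same in both libraries. Mir293 exceeded Mir294 1.37-fold in replicate 1 (95% exact interval 1.28 to 1.45) and 1.16-fold in replicate 2 (1.08 to 1.23). Mir294 exceeded Mir292 1.42-fold and 1.60-fold. Mir292 exceeded Mir291a 3.30-fold and 3.35-fold, the steadiest of these steps. In CPM, however, the ranges of Mir293 and Mir294 over the libraries overlapped, so their order held only within a library. Mir291a exceeded Mir291b 1.82-fold and 2.41-fold.

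Mir291b and Mir295 could not be ordered. Their ratio was 1.15 in replicate 1 (0.937 to 1.41) and 0.898 in replicate 2 (0.704 to 1.14), and both intervals include equal levels. Mir295 exceeded Mir290a 9.05-fold (5.69 to 15.2) and 7.35-fold (4.59 to 12.4). Mir293 and Mir290a, the highest and the lowest hairpin, differed 121-fold in the first library and 98.7-fold in the other. The level did not follow the place along the cluster, since the last hairpin, Mir295, was lower than both of its neighbours upstream, Mir294 and Mir293. The last 3 hairpins together had more counts than the first 4, by 2.36-fold and 2.49-fold in the respective libraries.

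The share of the cluster's counts held by each hairpin is given with an exact 95% interval for 3 of them. The differences of the shares between the libraries were not tested. Mir294 took 28.5% of the cluster's counts in replicate 1 (27.3 to 29.6) and 31.8% in replicate 2 (30.6 to 33.1). Mir293 took 38.9% (37.6 to 40.1) and 36.8% (35.5 to 38.1). Mir292 took 20.1% and 19.8%, Mir291a 6.07% and 5.93%, and Mir295 2.90% and 2.74%. Mir291b took 3.33% (2.90 to 3.81) and 2.46% (2.06 to 2.91). Mir290a took 0.320% and 0.373%.

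The counts of Mir291a and Mir291b depend on how reads common to both were placed. Their hairpins share a run of 20 bases, which lies in the 5p arms and is shown in capitals.
miR-291a-5p: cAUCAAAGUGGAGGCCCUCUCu
miR-291b-5p: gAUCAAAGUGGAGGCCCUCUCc
The arms differ only in their first and last base. Reads that map to several places are entered in a row of their own in the deposited tables (23.3% and 23.5% of reads) and not to genes, and a 5p read that lacks both end bases matches both hairpins. How many such reads there were was not tested. The longest stretch that any of the other 5 hairpins shared with an annotated microRNA hairpin elsewhere was 14 bases, for Mir293. Matches outside annotated hairpins were not examined.

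The reads came from the strand of the listed hairpins. On the opposite strand the 7 genes had 0 counts in replicate 1 and 1 count in replicate 2, at Mir291a. Over all listed genes, opposite-strand counts were 4.46% and 4.58% of gene counts. At Mir290a and Mir292, where Mir290b and Mir292b lie on the minus strand, both libraries had 0 opposite-strand counts, so up to 0.721 and 0.626 CPM remain possible at each locus.

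The Mir302-Mir367 cluster on chromosome 3 far exceeded the Mir290-Mir295 cluster. Its 5 genes together had 27853 CPM in replicate 1 and 22024 CPM in replicate 2, which was 18.6-fold (95% exact interval 18.1 to 19.1) and 19.7-fold (19.1 to 20.2) the Mir290-Mir295 counts. As log2 ratios of Mir302-Mir367 over Mir290-Mir295 the values averaged 4.26 ± 0.06 (SD, n = 2). The ratio depends on which genes are summed. The hairpins of Mir302a and Mir302b have 20 or more bases in common, like the Mir291a and Mir291b pair. Mir302a and Mir302b had means of 9393 and 7193 CPM, so leaving them out removes much of their cluster's sum. Whether shared reads alter the ratio was not tested. Without these 4 genes, the 3 remaining genes of the first cluster had 6.97-fold and 7.06-fold the counts of the 5 remaining hairpins of the second. No test was made of these ratios, since an exact two-sided sign-flip test on 2 libraries cannot go below p = 0.5.

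By gene, Mir302a had 10495 and 8291 CPM, or 18.0-fold and 20.1-fold the level of Mir293 in the same library. Mir302c, the next above Mir293 among the genes of both clusters, had 1460 and 1147 CPM. Mir367, which has another seed, had 7.69 and 7.10 CPM, near the level of Mir290a, and was the lowest gene of its cluster. The 3 members with the seed of miR-294-3p, Mir291a, Mir294 and Mir295, summed to 561 and 454 CPM. With Mir290a and Mir291b, whose 3p arms share the first 6 bases of that seed, the sum was 616 and 485 CPM. Mir302b and Mir302d, the listed genes outside the cluster with the whole seed in the table, summed to 15890 and 12579 CPM. Mir302a is not in that sum, and miR-302a-3p had no entry. Mir302c is also left out of it. The seed entered for miR-302c-3p is AGUGCUU, which begins with the last 6 bases of the whole seed. Mir350, whose 5p arm shares the seed of miR-291b-3p, had 357 and 327 CPM, against 50.0 and 27.6 CPM for Mir291b. The Mir17 family, proliferation-linked microRNAs with a related seed, had 6 listed genes and 53.0-fold and 43.9-fold the counts of the Mir290-Mir295 cluster.

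**Figure D2:**
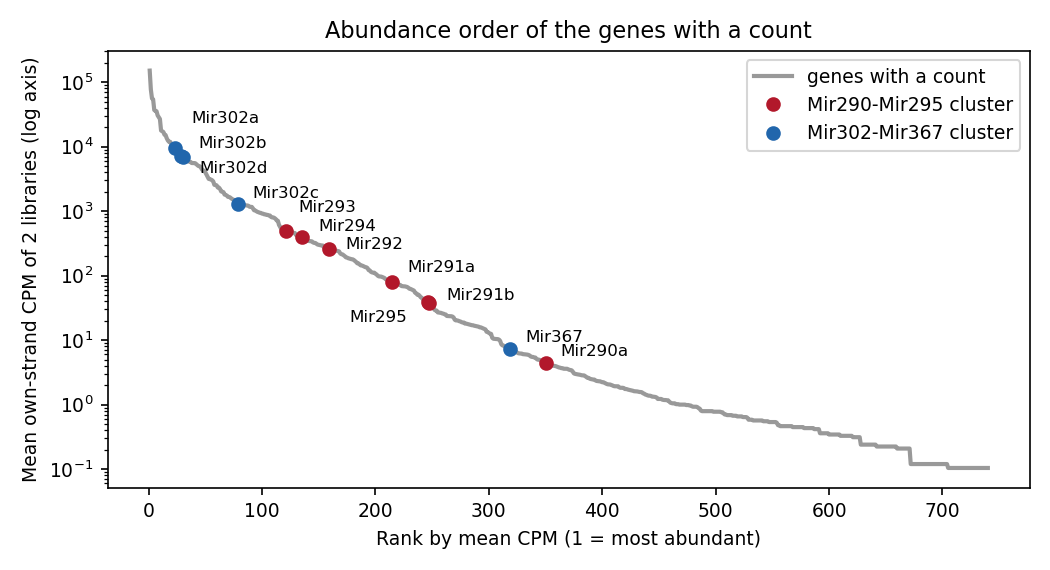
Mean own-strand CPM of 2 libraries (log axis) against rank, for the 740 listed genes with a count in either library; red points are the Mir290-Mir295 hairpins and blue points the Mir302-Mir367 genes. The red points run from rank 121 (Mir293) to rank 350 (Mir290a), after Mir302c at rank 79, and Mir367 lies between Mir295 and Mir290a.

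The heart label was checked against microRNAs that lie in myosin heavy chain introns. Mir208a, Mir208b and Mir499 summed to 34740 and 69047 CPM, which was 23.2-fold and 61.7-fold the Mir290-Mir295 counts. Markers of other tissues were also counted, and those of trunk, liver and epithelium differed strongly between the pools. The 5 Hox-cluster genes summed to 17064 CPM in replicate 1 and 1940 in replicate 2, the liver gene Mir122 to 3078 and 175 CPM, and the 5 epithelial genes to 5096 and 1332 CPM. The endothelial gene Mir126a had 53306 and 55503.5 CPM, and the 3 erythroid genes summed to 1160 and 1713 CPM. The 6 listed Sfmbt2 repeat genes, known from extraembryonic tissue, summed to 3994 and 3343 CPM, with Mir669a-1 at 0. The 6 listed neural genes summed to 137 and 136 CPM, nearly all of it from Mir138-2 with 564 and 644 counts. Of them 4 (Mir9-2, Mir124a-1, Mir124a-2 and Mir124a-3) were at 0. All 6 listed neural genes and all 6 listed Sfmbt2 repeat genes share a stretch with another hairpin, like the Mir291a and Mir291b pair. Reads that map to several places are not entered to genes. The sums of these lists may therefore be too low, and a count of 0 does not show that the microRNA was absent. The part that any of these cells have in the cluster's counts was not tested.

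Between the libraries, all 7 hairpins had the higher CPM in replicate 1, as did 287 of the 424 tested genes (67.7%). Summed, the cluster in replicate 2 was at 0.747 of its CPM in replicate 1. Genes with at least 10 counts in a library were then compared with an exact binomial test on counts scaled by TMM. TMM sets the trimmed mean of the log2 ratios to equality, while single genes can still differ. This test compares 2 libraries and asks only whether a difference exceeds counting error. Of all tested genes 61.6% passed, 30.4% higher and 31.1% lower in replicate 2. Of the 7 members 3 passed, each lower in replicate 2. Whether this share differs from that of all tested genes was not tested. The members had a median log2 ratio (replicate 2 over replicate 1) of -0.18, and all tested genes one of -0.01.

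Of the members, Mir291b was lowest in replicate 2 relative to replicate 1, at a log2 ratio of -0.58 (95% exact interval -0.91 to -0.26; exact binomial test, adjusted p = 0.000559). It had 208 and 132 counts, and the effect of reads shared with Mir291a on this ratio was not tested. Mir293 was lower at -0.22 (-0.31 to -0.14; exact binomial test, adjusted p = 6.56e-07). Mir292 was lower at -0.16 (-0.28 to -0.04; exact binomial test, adjusted p = 0.0129). Mir291a at -0.18, Mir295 at -0.23, Mir294 at 0.02 and Mir290a at 0.07 did not pass. The interval of Mir290a, from -0.90 to 1.04, is wide, so a difference of that size was not detectable at its depth. Mir294, with 1776 and 1707 counts, had the narrow interval of -0.08 to 0.11.

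The members had log2 ratios of a size common in the whole table. Their log2 ratios ran from -0.58 to 0.07, and 6 of the 7 lay between the quartiles of all tested genes, which were -0.50 and 0.43. Of all tested genes, 59.9% had an absolute log2 ratio below the largest among the members. Their coefficients of variation in CPM ran from 9.88% to 40.9% with a median of 22.1%, against a median of 23.9% for the tested genes. Of the Mir302-Mir367 genes 3 of 5 passed, all lower. The 5 had a median of -0.07 and ran from -0.12 to 0.16, a narrower range than that of the members. In the same comparison the heart muscle genes had a median of 1.20 with 3 of 3 higher. The epithelial genes had a median of -1.72 with 5 of 5 lower, and the Hox-cluster genes -2.32 with 4 of 4 tested genes lower.

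**Figure D3:**
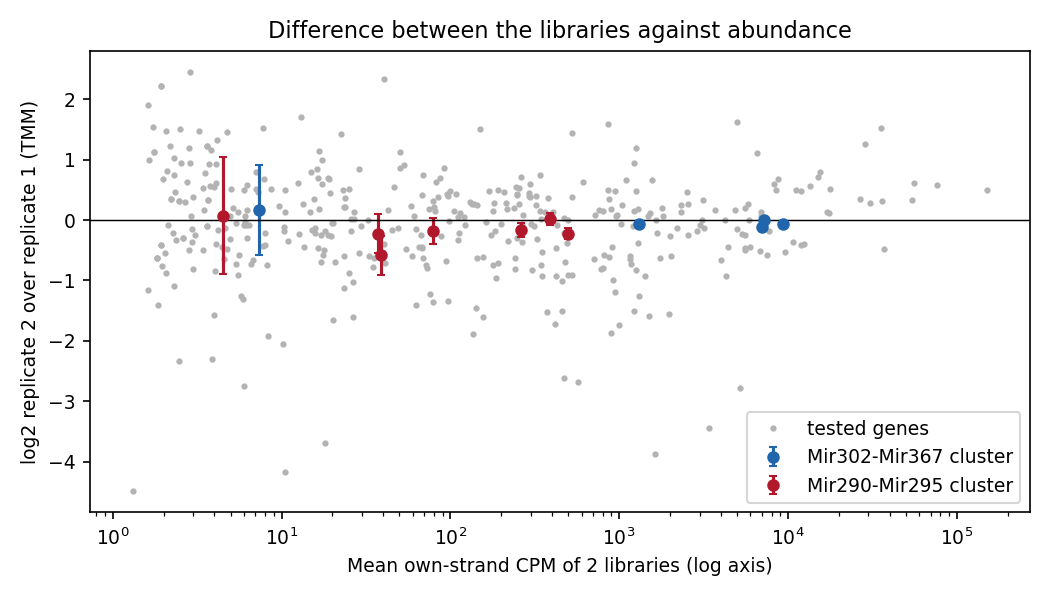
The log2 ratio of replicate 2 over replicate 1 after TMM scaling against mean own-strand CPM (log axis) for the 424 tested genes in grey, with the Mir290-Mir295 hairpins in red and the Mir302-Mir367 genes in blue; bars are exact 95% intervals. The hairpins lie between -0.58 and 0.07 while other genes reach several units from 0.

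The number of members called depended on the scaling. Scaling by total counts moved the median log2 ratio over the tested genes by -0.27. In this setting 6 of 7 members passed and were lower in replicate 2, and Mir290a did not. Among all tested genes the share was 61.8%, with 15.6% higher and 46.2% lower, a split of 66 higher and 196 lower against 129 and 132 with TMM. Mir294 changed from 0.02 to -0.26 and Mir290a from 0.07 to -0.20, so the sign of these 2 estimates changed. Their intervals with TMM include equal levels, as does that of Mir290a with total counts (-1.17 to 0.77). With DESeq2 size factors 4 of 7 passed, Mir291a among them at -0.25 (exact binomial test, adjusted p = 0.0393), beside 59.9% of all tested genes, 25.5% higher and 34.4% lower. Mir292, Mir291b and Mir293 were lower and passed under all 3 scalings.

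**Figure D4:**
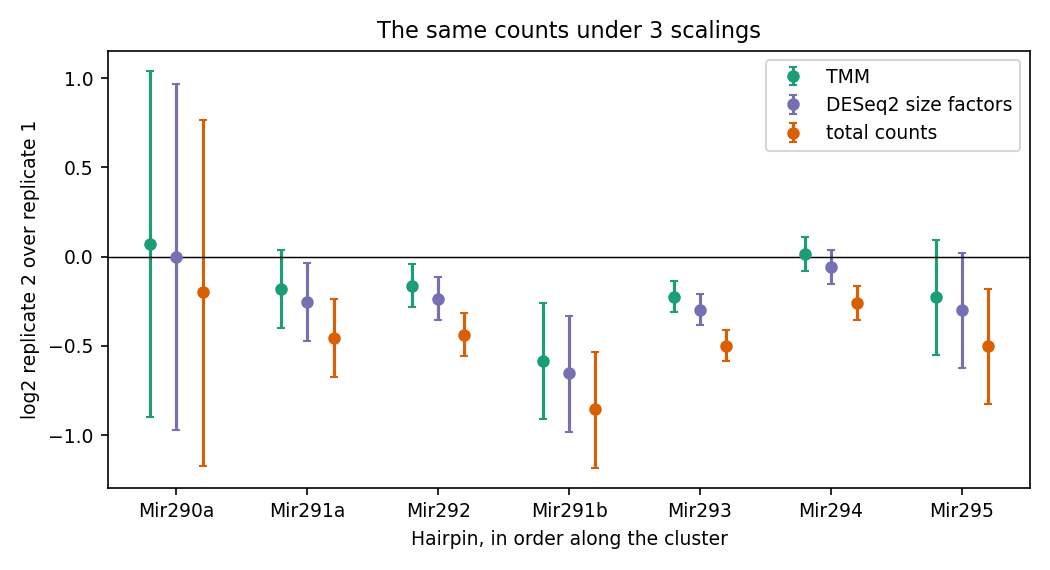
The log2 ratio of replicate 2 over replicate 1 for each hairpin, in order along the cluster, under TMM, DESeq2 size factors and total counts; bars are exact 95% intervals. Every hairpin shifts down by the same amount from TMM to total counts, and Mir292, Mir291b and Mir293 stay below 0 with their intervals in all 3.

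The listed genes closest to Mir293 in level over both libraries, by Euclidean distance in log2(CPM + 1), were Mir25 with 552 and 391 CPM (distance 0.11), Mir455 with 604 and 383 CPM (0.12) and Mir339 with 547 and 454 CPM (0.17). With 2 libraries this measure shows a like level and little more.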

How the data were processed

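Read counts per microRNA gene were deposited by the authors without normalization, in 3 columns (both strands, own strand, opposite strand). They were made from mm10 alignments with GENCODE M4 gene models, per the file headers of the deposited README texts. The aligner is not given in the sources used here. Own-strand counts were used. Rows naming no gene stayed out of library sizes. Besides the multi-mapped reads, unmapped reads were 26.3% and 25.5% and reads outside listed genes 8.98% and 7.41% of each library. Symbols and positions came from GENCODE M21, also on mm10, which matched 1894 of 1973 identifiers.

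Exact (Clopper-Pearson) intervals used scipy 1.17.1 and cover counting error only. TMM factors (edgeR 4.0.16) were computed on the 424 tested genes. The test per gene was a two-sided exact binomial test conditional on the summed count, with Benjamini-Hochberg adjustment over all tested genes and calls under 0.05. A prior count of 0.5 entered the log2 ratios. The test was checked on data simulated with counting error alone, so the check does not cover variation between pools. Replicates are separate pools, and the spread holds pool and library preparation together. Shared stretches were searched on both strands in GENCODE M21 hairpins.

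The genes named are all members, the Mir302-Mir367 genes, genes sharing a seed, the 3 nearest to the leading member and the marker lists. The members, lists and tests were chosen with earlier results of these data known. Alternatives were both-strand counts, other scalings (total counts, DESeq2 1.42.0), no filter, other prior counts, leaving out genes and each replicate alone.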

Additional observations from a re-analysis of the deposited data

How the results depend on the processing

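The share of the cluster, 0.131% of counts, moved by less than its SD with counts over both strands, without the most abundant gene and without genes that share a stretch, and ran from 0.112% to 0.150% with each replicate alone. The log2 ratio of the cluster over Mir302-Mir367 was -4.26, ran from -4.30 to -4.22 with each replicate alone, and was -2.81 without genes that share a stretch of 20 bases, where fewer genes are summed. Of the 7 members 3 passed the exact binomial test with TMM, 4 with DESeq2 size factors and 6 with total counts. Among all tested genes 61.6%, 59.9% and 61.8% passed in these settings. Mir294, whose interval with TMM includes equal levels, went from 0.02 to -0.26 under total counts and passed. The median member level of 78.7 CPM ran from 66.4 to 91.0 CPM with each replicate alone. The number of all tested genes that passed stayed within 1.5 times 261 under every alternative run, but share and direction changed. Without the filter 256 of 740 tested genes passed, against 261 of 424. Total counts gave 66 higher and 196 lower, against 129 and 132 with TMM. No paired analysis was possible because the libraries form 1 group. Depth limits Mir290a, with 20 counts in each library.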
